A study of Homo sapiens with 4 samples.

Results

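Transcript levels of 10 genes of the AP-1 and immediate early group (FOS, FOSB, FOSL1, FOSL2, JUN, JUNB, JUND, EGR1, IER3 and MYC) were followed in single U-2 OS cells after ionizing radiation (IR). The genes were taken by symbol, and all 10 stood among the 36601 genes listed in each of the 4 libraries. U-2 OS is a widely used line from a human osteosarcoma and carries wild-type p53. The irradiated libraries (IR) hold cells given 4 Gy, and the untreated libraries (UT) hold cells of the same line given no radiation. The series design and the methods place the sort 48 h after IR, whereas the treatment protocol in the labels gives 24 h. Each of 2 experiments gave 1 IR and 1 UT library, named IR1, IR2, UT1 and UT2 by experiment. No gate on the cells of these libraries is given in the sources used here.

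AP-1 is a dimer of basic leucine zipper proteins. Jun proteins pair with each other or with Fos proteins, and the dimers bind the TPA response element and related sites. Growth factors, stress and DNA damage act through the ERK, JNK and p38 kinases on factors such as SRF, ELK1 and CREB, which switch on immediate early genes without new protein synthesis. Many of these transcripts are short-lived, whereas FOSL1 is known as a later output of sustained ERK signalling. MYC, which drives growth and ribosome production, belongs to the same early wave after mitogens.

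The libraries held 247 and 248 cells in IR, against 358 and 367 cells in UT, with total counts between 5736339 and 6810079. The median cell held 20181 and 22036 counts in IR1 and IR2, against 15663 and 17627 in UT1 and UT2. Levels are given as CPM, the count of a gene scaled to a fixed total of counts per library, so they are relative to all other transcripts and not per cell. CDKN1A, the p53-induced cell cycle inhibitor that served as a check of the labels, stood at 959 and 914 CPM in IR, against 324 and 277 CPM in UT. Of 12 osteosarcoma and mesenchymal markers, 5 were seen in at least 20% of cells of every library, among them COL1A1, SPARC and VIM, but 5 were under 5% everywhere, including COL1A2 and the osteoblast factor SP7. Of 16 markers of other cell types, 13 were under 5% in every library, 3 of these at 0 throughout, and EPCAM, CD3E and GFAP were at or above 5% in some library. Their summed level was 17.3 and 33.6 CPM in IR, against 18.9 and 34.4 CPM in UT, so it followed the experiment and not the treatment. The plates use the same set of well barcodes, and pairs of libraries shared 173 to 350 of them.

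Promoters are shown for the Fos members whose levels are described next and for EGR1, which varied strongly between cells. They come from RefSeq (GRCh38.p14) and run from 250 bases before to 50 after the start of the gene in RefSeq, all on the plus strand. The RefSeq start lies 410 bases downstream of the GENCODE start for FOSL2 and at most 2 bases from it for the other matched genes, and motif positions are counted from the RefSeq start. A promoter was matched for 7 of the 10 genes. Capitals mark the AP-1 site TGACTCA, the TGACG core of the cAMP response element (CRE), the TATAAA box on the strand of the gene, and the SRF-binding CArG box, with all but TATAAA searched on both strands.
FOS chr14:75278578-75278877: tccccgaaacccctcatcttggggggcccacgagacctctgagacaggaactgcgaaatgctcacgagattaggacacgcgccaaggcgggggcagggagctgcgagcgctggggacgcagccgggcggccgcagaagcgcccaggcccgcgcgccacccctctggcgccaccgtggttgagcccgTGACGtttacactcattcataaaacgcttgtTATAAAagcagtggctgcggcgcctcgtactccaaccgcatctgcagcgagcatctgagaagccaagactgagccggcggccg
FOSB chr19:45467746-45468045: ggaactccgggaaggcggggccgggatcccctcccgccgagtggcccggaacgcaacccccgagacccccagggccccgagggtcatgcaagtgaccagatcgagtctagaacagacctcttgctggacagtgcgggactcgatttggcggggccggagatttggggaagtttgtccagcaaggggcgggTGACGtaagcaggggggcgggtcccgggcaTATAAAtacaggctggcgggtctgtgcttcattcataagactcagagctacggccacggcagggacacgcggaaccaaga
FOSL2 chr2:28392608-28392907: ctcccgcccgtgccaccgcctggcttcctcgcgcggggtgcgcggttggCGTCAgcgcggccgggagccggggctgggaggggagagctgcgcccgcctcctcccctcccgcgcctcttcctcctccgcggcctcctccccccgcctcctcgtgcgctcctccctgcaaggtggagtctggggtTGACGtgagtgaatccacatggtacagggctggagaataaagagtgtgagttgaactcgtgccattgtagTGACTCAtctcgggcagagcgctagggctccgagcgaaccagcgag
EGR1 chr5:138465229-138465528: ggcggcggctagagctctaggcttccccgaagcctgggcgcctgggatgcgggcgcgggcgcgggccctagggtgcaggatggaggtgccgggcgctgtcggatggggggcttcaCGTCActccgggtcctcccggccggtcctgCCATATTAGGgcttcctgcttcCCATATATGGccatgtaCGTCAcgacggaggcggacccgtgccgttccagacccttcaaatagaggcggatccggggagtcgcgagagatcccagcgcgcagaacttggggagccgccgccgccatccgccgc
The FOS promoter held a TGACG core at -64 to -60 and a TATAAA box at -33 to -28. FOSB had the same arrangement, with TGACG at -60 to -56 and TATAAA at -30 to -25. EGR1 held 2 CArG boxes, at -105 to -96 and -83 to -74, and FOSL2 held TGACTCA at +5 to +11. Outside the full CRE, TGACG was present in all 7 matched promoters and in 23.4% of the 35116 promoters in the table. TGACTCA was present in 4.95% of the promoters and only in FOSL2 among the 7, the full CRE TGACGTCA in 1.85% and only in JUND, TATAAA in 7.33% and in FOS, FOSB and JUNB, and a CArG box in 1.29% and only in EGR1. A match is a description of the sequence and not a bound site. Sequence outside this window was not searched, so a motif missing here, such as a CArG box in FOS, may lie further away.

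Across the group, FOS was lower and FOSL1 and MYC were higher in both IR libraries, while FOSB, JUNB, JUND and EGR1 overlapped between IR and UT. The libraries of IR and UT did not overlap in CPM for 6 of the 10 genes, 4 higher and 2 lower in IR, against 49.2% of all 14647 genes tested (30.7% higher and 18.5% lower). With group as the only term, edgeR called 0 of 10 at an adjusted p under 0.05, beside 2.48% of all genes (1.63% higher and 0.847% lower). Of the 10 genes, 3 had an unadjusted p under 0.05 in edgeR, beside 18.4% of all genes, and DESeq2 called 1, FOS, as lower, beside 3.81% of all genes (2.27% higher and 1.54% lower). The experiment number pairs the libraries, and with it as a block edgeR called 4 of 10: FOSL1 and MYC higher, FOS and IER3 lower. That fit called 27.2% of all genes (14.3% higher and 12.9% lower) and left 1 residual degree of freedom. The plot of levels by library shows these positions.

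**Figure D1:**
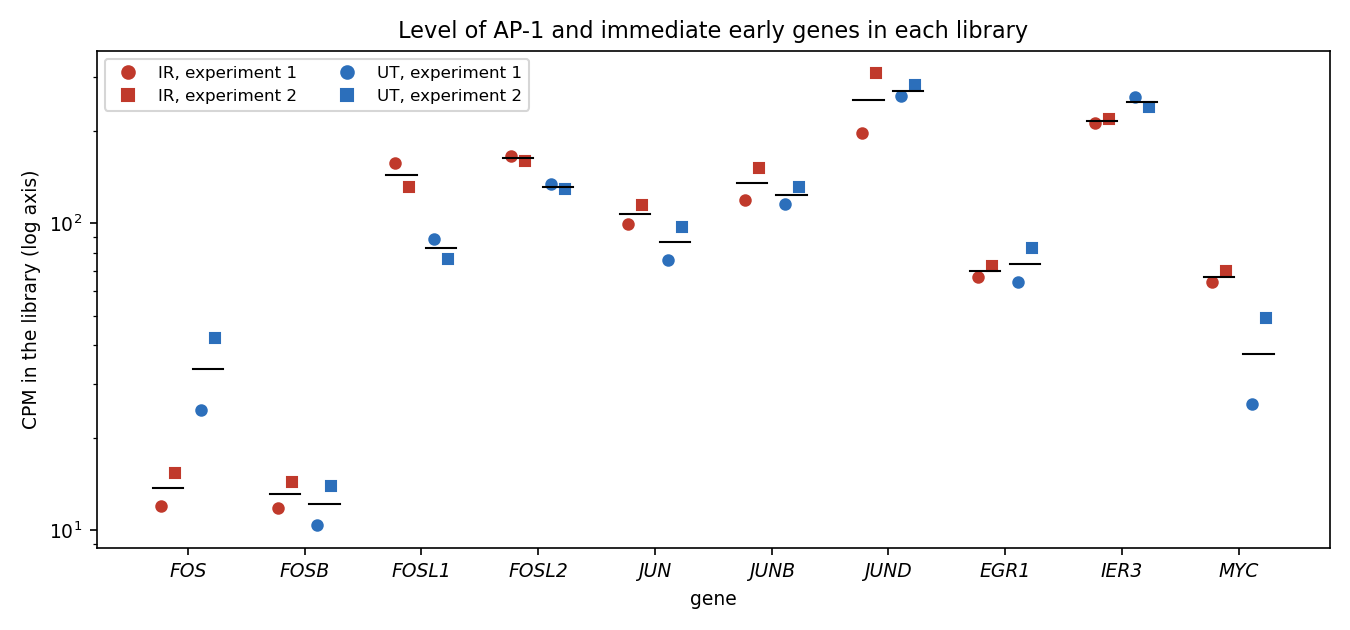
Level of each of the 10 genes in CPM (log axis) in the 2 IR libraries (red) and the 2 UT libraries (blue), with experiment 1 as circles, experiment 2 as squares and the group mean as a bar. FOS lay at 12.0 and 15.4 CPM in IR, below 24.7 and 42.3 CPM in UT, whereas both IR points of FOSL1 and MYC lay above both UT points.

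FOS, the founding Fos protein, lies on chromosome 14 at 75278826 to 75282230 (plus strand, GRCh38). It stood at 12.0 and 15.4 CPM in IR1 and IR2, against 24.7 and 42.3 CPM in UT1 and UT2, from 69 and 95 counts in IR and 145 and 288 counts in UT. Both IR libraries were below both UT libraries, and UT2 was well above UT1. The means were 13.7 ± 2.35 CPM in IR and 33.5 ± 12.4 CPM in UT (SD, n = 2 each), 0.409-fold. The log2 fold change was -1.37 (SE 0.29), with an edgeR adjusted p of 0.0631 for group alone and 3.03e-10 with the experiment as a block. Leaving out UT1 made the group-only call (log2 fold change -1.69, edgeR adjusted p = 0.0129), and leaving out any other library did not. Within the experiments, the log2 ratio of CPM was -1.04 (95% counting interval -1.47 to -0.62) in experiment 1 and -1.46 (-1.81 to -1.12) in experiment 2, so the direction was shared.

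FOSB, the closest relative of FOS, with a similar promoter (chromosome 19, 45467995 to 45475179, plus strand), showed no difference past its error. Its level was 11.9 and 14.4 CPM in IR, against 10.4 and 14.0 CPM in UT, and the groups overlapped. The log2 fold change was 0.03 (SE 0.25, edgeR adjusted p = 0.974). At 61 to 95 counts per library the counting interval of its log2 ratio ran from -0.33 to 0.71 in experiment 1 and from -0.39 to 0.48 in experiment 2, so a moderate change in either direction would not have been detectable.

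FOSL1 (FRA-1) and FOSL2 (FRA-2) are Fos proteins without the strong transactivation domain of FOS. FOSL1 (chromosome 11, 65892049 to 65900573, minus strand) stood at 157 and 131 CPM in IR, against 89.0 and 76.7 CPM in UT. The groups did not overlap, and the means of 144 ± 18.3 CPM in IR and 82.8 ± 8.69 CPM in UT (SD, n = 2 each) differed 1.74-fold. Its log2 fold change was 0.72 (SE 0.17), with an edgeR adjusted p of 0.0837 for group alone and 2.48e-08 with the block. The 2 experiments gave close log2 ratios, 0.82 (0.66 to 0.98) and 0.77 (0.61 to 0.93). With group alone, FOSL1 stayed above the threshold whichever library was left out (edgeR adjusted p between 0.112 and 0.337).

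FOSL2 (chromosome 2, 28392448 to 28417317, plus strand) stood at 166 and 160 CPM in IR, against 134 and 129 CPM in UT. The groups were narrow and apart, with means of 163 ± 4.30 CPM in IR and 132 ± 3.57 CPM in UT (SD, n = 2 each), but the change was small (log2 fold change 0.23, SE 0.14) and was called neither for group alone (edgeR adjusted p = 0.464) nor with the block (0.0751). In CPM, which counts 3' tags and so does not scale with gene length, FOSL2 was the highest Fos member in every library and FOSL1 the next, while FOS and FOSB were the lowest of all 10 genes in every library.

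Of the Jun proteins, the obligate partners of the Fos proteins, none was called in either direction. JUN (chromosome 1, 58776845 to 58784048, minus strand), the classical target of JNK, stood at 99.4 and 115 CPM in IR, against 75.8 and 97.4 CPM in UT. The groups were apart only by the gap between 99.4 in IR1 and 97.4 in UT2, and the log2 fold change of 0.23 (SE 0.18) was not called (edgeR adjusted p = 0.568 for group alone and 0.0965 with the block). Within the experiments its log2 ratio was 0.39 and 0.24.

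JUNB (chromosome 19, 12791486 to 12793315, plus strand) is a weaker activator that can oppose JUN. It stood at 119 and 152 CPM in IR, against 116 and 131 CPM in UT, with overlap between the groups and a log2 fold change of 0.05 (SE 0.17, edgeR adjusted p = 0.928). Its exons overlap those of HOOK2 on the other strand, a gene at 18.1 to 28.0 CPM, and since the strand setting of the counting is not given in the sources used here, a share of reads could belong to either.

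JUND (chromosome 19, 18279694 to 18281622, minus strand), the most constitutive Jun protein, stood at 197 and 307 CPM in IR, against 259 and 281 CPM in UT. The IR libraries lay on both sides of the UT libraries. The log2 ratio was -0.40 (-0.51 to -0.28) in experiment 1 and 0.13 (0.04 to 0.22) in experiment 2, opposite in sign. The pooled log2 fold change of -0.18 (SE 0.22) was not called (edgeR adjusted p = 0.742).

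EGR1 (chromosome 5, 138465479 to 138469303, plus strand), a zinc finger factor and a classical SRF target, stood at 66.8 and 72.8 CPM in IR, against 64.6 and 83.1 CPM in UT. The groups overlapped and the experiments differed in sign, with log2 ratios of 0.05 (-0.16 to 0.26) and -0.19 (-0.37 to -0.01). Its log2 fold change was -0.16 (SE 0.18, edgeR adjusted p = 0.704).

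IER3 (chromosome 6, 30743199 to 30744548, minus strand), an early gene product that acts on survival signalling, stood at 213 and 218 CPM in IR, against 258 and 239 CPM in UT. Both IR libraries were lower, with means of 216 ± 4.01 CPM in IR and 249 ± 13.2 CPM in UT (SD, n = 2 each). The log2 fold change was -0.29 (SE 0.15), with an edgeR adjusted p of 0.364 for group alone and 0.0143 with the block. The log2 ratio was -0.28 in experiment 1 and -0.13 in experiment 2. IER3 overlaps IER3-AS1, at 4.26 to 7.49 CPM, and HCG20, under 0.65 CPM.

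MYC (chromosome 8, 127735434 to 127742951, plus strand) stood at 64.3 and 69.7 CPM in IR, against 25.7 and 49.2 CPM in UT. The IR libraries were close together and above both UT libraries, which were wide apart. The means were 67.0 ± 3.78 CPM in IR and 37.5 ± 16.6 CPM in UT (SD, n = 2 each), 1.79-fold. The log2 fold change of 0.76 (SE 0.29) had an edgeR adjusted p of 0.224 for group alone and 8.4e-05 with the block. The size rested on the UT library: the log2 fold change was 0.38 without UT1 and 1.29 without UT2 (edgeR adjusted p = 0.0272 for the second). Within the experiments the log2 ratio was 1.32 (1.04 to 1.60) and 0.50 (0.29 to 0.71), with intervals that did not overlap. The intervals here and elsewhere cover counting error only.

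**Figure D2:**
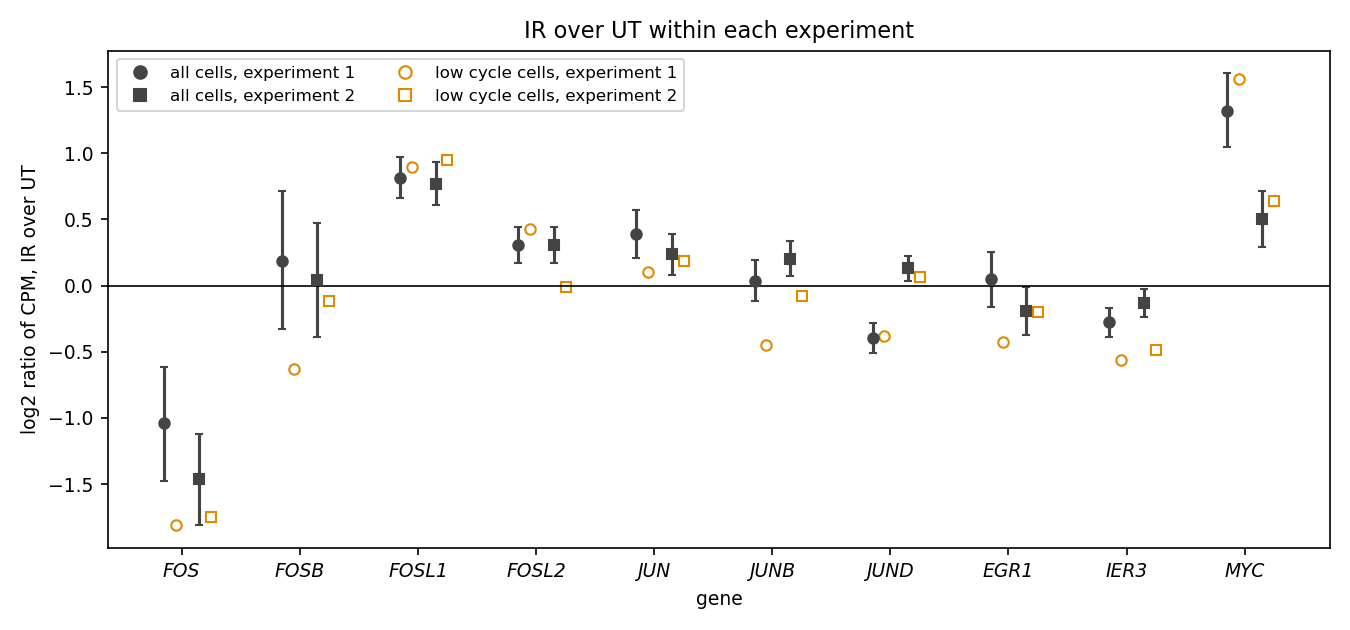
Log2 ratio of CPM, IR over UT, within experiment 1 (circles) and experiment 2 (squares) for each gene, over all cells (filled, bars show the 95% counting interval) and over cells low in cell cycle transcripts (open). FOS was negative at -1.04 and -1.46 and FOSL1 positive at 0.82 and 0.77 in all cells, and JUND lay at -0.40 and 0.13.

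On a scale of counts per cell the median of all genes tested moved by 0.54 on the log2 scale. This scale divides by the number of cells and does not correct for sequencing depth per cell. Total counts were similar, while IR libraries held fewer cells. The median cell held 489 gene counts per spike-in count in IR1 and 310 in UT1, but 94.2 in IR2 and 79.3 in UT2. More transcripts per cell and deeper sequencing per cell cannot be told apart here. Relative to that shift each gene kept its direction. Against 0, FOS was still negative at -0.84, whereas IER3, EGR1 and JUND became positive at 0.26, 0.37 and 0.37. FOSL1 (1.26, edgeR adjusted p = 0.00831), MYC (1.27, 0.0409) and FOSL2 (0.77, 0.0231) were called higher per cell, beside 22.7% of all genes called higher and 0.321% lower. FOS was not called on this scale (adjusted p = 0.102).

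IR cells also held a lower share of cycle transcripts. Of 30 S phase genes 7 fell and 0 rose (median log2 fold change -0.75), and of 30 genes of G2 and M phase 5 fell and 0 rose (median -0.67). With the block 27 and 29 fell. Group-only calls in the S phase and the G2 and M lists numbered 0 and 0 without IR1, 1 and 0 without IR2, and 2 and 3 without UT2. Cells below the pooled median share of both lists are called low cycle cells here, which is a range cut from 2 scores and not a cell type. They numbered 126 and 128 in IR (54.5% and 55.2%), against 74 and 75 in UT (22.2% and 21.1%), of cells thinned to 8000 unique molecular identifiers (UMIs). Between 34 and 68 cells per library lay within 10% of a cut.

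Within low cycle cells, FOS stood at 10.5 and 14.8 CPM in IR, against 36.9 and 49.9 CPM in UT. This comparison was called for group alone (log2 fold change -1.82, SE 0.30, edgeR adjusted p = 0.0317), in a fit that called 0.626% of all genes (0.345% higher and 0.281% lower), and the difference was no smaller than over all cells. FOSL1 stood at 123 and 84.9 CPM in IR, against 66.0 and 44.1 CPM in UT, and MYC at 53.1 and 55.6 CPM in IR, against 18.0 and 35.8 CPM in UT. Both kept their direction among low cycle cells, with log2 fold changes of 0.86 and 0.95 (edgeR adjusted p = 0.220 and 0.244 for group alone). IER3 stood at 228 and 230.4 CPM in IR, against 336 and 323 CPM in UT, a log2 fold change of -0.58 (edgeR adjusted p = 0.226). With the block, an alternative chosen after seeing the data, all 4 were called (edgeR adjusted p between 0.00125 and 0.0431), FOSL1 and MYC higher and FOS and IER3 lower, beside 5.62% of all genes (3.05% higher and 2.58% lower).

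Shares of cells with a UMI were also set side by side for low cycle and other cells of each library. In IR1, 7.94% of low cycle cells and 9.52% of other cells had a FOS UMI, and in IR2 10.2% and 12.5%, whereas in UT1 the shares were 25.7% (95% interval 16.2 to 37.2) and 12% (8.28 to 16.6) and in UT2 26.7% (17.1 to 38.1) and 22.4% (17.7 to 27.8). The 2 FOS intervals overlapped in all 4 libraries. JUNB was seen in 46.8% of low cycle and 40.0% of other cells of IR1 and in 60.2% and 51.9% in IR2, against 71.6% and 44.8% in UT1 and 65.3% and 51.6% in UT2, with intervals apart only in UT1 (59.9 to 81.5 and 38.6 to 51.1). FOSL1 was seen in a smaller share of low cycle cells in all 4 libraries, though within each its intervals overlapped, with 56.3% of low cycle and 71.4% of other cells in IR1 and 46.9% and 62.5% in IR2, against 29.7% and 39.0% in UT1 and 21.3% and 35.2% in UT2. The part of the cycle in the differences of FOS, JUNB and FOSL1 between IR and UT cells was not tested beyond these strata.

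FOSL1 and MYC were also seen in more IR than UT cells at 8000 UMIs per cell. After thinning each cell to 8000 UMIs (231 and 232 cells in IR, 333 and 356 in UT), FOSL1 was seen in 63.2% and 53.9% of IR cells (95% Clopper-Pearson intervals 56.6 to 69.4 and 47.2 to 60.4), against 36.9% (31.7 to 42.4) and 32.3% (27.5 to 37.4) of UT cells. The intervals of the groups did not overlap, but they treat the cells of a library as independent and leave out variation between libraries. MYC was seen in 34.2% (28.1 to 40.7) and 33.2% (27.2 to 39.7) of IR cells, against 16.8% (13 to 21.3) and 25.3% (20.8 to 30.1) of UT cells, with overlap between IR and UT2. FOS was seen in 8.66% (5.37 to 13.1) and 11.2% (7.45 to 16) of IR cells, against 15% (11.4 to 19.3) and 23.3% (19.0 to 28.1) of UT cells, and only the intervals of UT2 lay clear of both IR libraries. At 12000 UMIs MYC was seen in 39.7% and 42.5% of IR cells, against 26.5% and 40.5% of UT cells. IR1 was then below UT2, so the order of the groups for MYC depended on depth.

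Markers of other cell types gave a measure of background for FOS and FOSB. EPCAM, an epithelial surface protein not expected in a mesenchymal tumour line, was seen in 6.49% and 11.2% of thinned IR cells, against 17.7% and 12.1% of UT cells, at 13.6 and 14.1 CPM in IR, against 17.2 and 15.4 CPM in UT. The other 15 markers reached at most 1.30% in experiment 1 (PTPRC and PECAM1 in IR1) and 5.60% in experiment 2 (CD3E in IR2). FOSB, at 6.06% and 9.05% of IR cells, against 6.61% and 9.83% of UT cells, was below EPCAM and above the other 15 in every library. FOS was above those 15 in every library, but its interval lay clear above EPCAM in UT2 only. Whether EPCAM is expressed in this line or marks background was not tested, so no number of cells that express FOS or FOSB is read from these shares. Without thinning, FOS was seen in 19.4% and 21.4% of IR cells, against 26.8% and 41.1% of UT cells.

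The other members differed less between the groups. IER3 was seen in 68.0% and 64.7% of thinned IR cells, against 68.5% and 68.0% of UT cells. FOSL2 was seen in 64.5% and 61.6% of IR cells, against 57.4% and 55.3% of UT cells, and JUND in 71.4% and 85.8% of IR cells, against 84.1% and 82.3% of UT cells. JUN (49.8% and 50.4% of IR cells, against 39.6% and 49.4% of UT cells) was low in UT1 alone. EGR1, at 28.1% and 30.2% of IR cells, against 26.1% and 37.6% of UT cells, and JUNB, at 43.7% and 56.5% of IR cells, against 50.8% and 54.5% of UT cells, showed no shared direction.

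**Figure D3:**
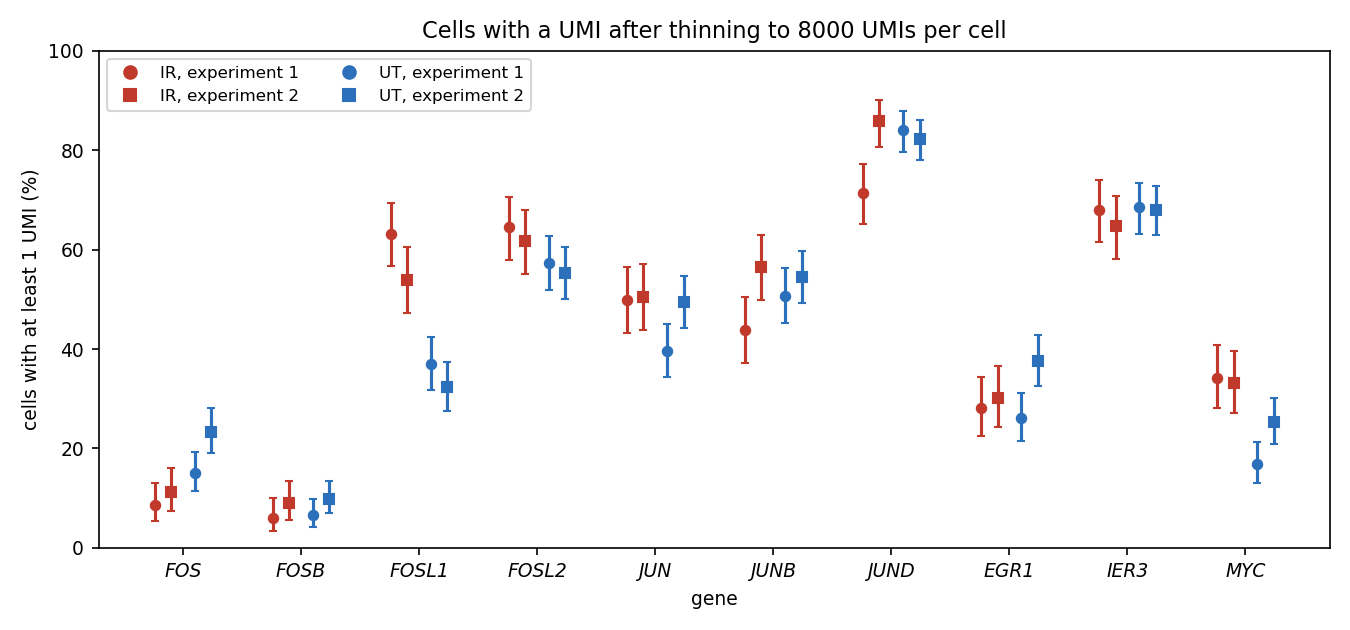
Share of cells with at least 1 UMI of each gene after thinning to 8000 UMIs, in IR (red) and UT (blue), with experiment 1 as circles, experiment 2 as squares and exact binomial 95% intervals as bars. FOSL1 at 63.2% and 53.9% of IR cells lay clear of 36.9% and 32.3% of UT cells, and FOSB stayed under 10% in every library.

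The spread between cells was then compared at equal depth. As in the methods of the study, a straight line of the log2 SD of normalised values on the log2 mean was fitted over genes. Here it ran over the 10350 genes seen in at least 5% of thinned cells of every library. The residual is the distance of a gene from that line, which need not remove all dependence on the mean. FOS and MYC, for example, had means of 0.13 and 0.14 in UT1, with residuals of -0.00 and -0.01. In UT2 their means were 0.23 and 0.25, with residuals of 0.20 and 0.21. None of the 10 genes passed the residual of 0.5 used to call high variability, in libraries where 0.193% and 0.174% of genes passed in IR and 0.087% and 0.0386% in UT. Below that limit, several members were in the upper tail everywhere, among them EGR1 and JUNB. EGR1 had residuals of 0.42 and 0.31 in IR, against 0.33 and 0.32 in UT, and JUNB had 0.35 and 0.28 in IR, against 0.29 and 0.27 in UT. Among genes, EGR1 stood between the percentiles 99.1 and 99.6 and JUNB between 98.9 and 99.3 over the 4 libraries. IER3 stood between 96.5 and 99.7 and FOSL2 between 95.1 and 98.9, so a place in the upper tail was not particular to EGR1 and JUNB.

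EGR1 in IR1 had a variance 5.50 times its mean (the Fano factor), against 1.91 in IR2, 2.82 in UT1 and 2.01 in UT2. A single IR1 cell with 22 EGR1 UMIs carried much of this, and without the top cell of each library the Fano factor was 2.74 and 1.82 in IR, against 2.11 and 1.90 in UT. The median of all genes was 1.11 and 1.12 in IR, against 1.08 in both UT libraries.

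Residuals did not overlap between IR and UT for 4 of the 10 genes (FOSL1, FOSL2, IER3 and MYC), beside 41.3% of all 10350 genes, so this count is near the background. FOSL1 had residuals of 0.16 and 0.13 in IR, against 0.31 and 0.24 in UT. IER3 had 0.19 and 0.33 in IR, against 0.41 and 0.37 in UT, also lower in both IR libraries, and FOSL2 had 0.17 and 0.18 in IR, against 0.19 and 0.26 in UT. MYC went the other way, with 0.22 and 0.26 in IR, against -0.01 and 0.21 in UT, but UT2 was close to IR1. The mean normalised value of MYC was also lower in UT, at 0.14 and 0.25, against 0.35 in both IR libraries. FOSL1 differed, with a higher mean and a lower residual in IR. The part of the mean in these residuals was not tested. With 2 libraries a group these differences were not tested. FOS (-0.11 and 0.04 in IR, against -0.00 and 0.20 in UT) and FOSB, between -0.07 and 0.01, lay nearer 0.

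The spread depended on depth. At 12000 UMIs EGR1 alone passed 0.5, with 0.54 in IR1 and 0.502 in UT2, beside 0.452% and 0.416% of all genes in IR and 0.292% and 0.257% in UT. Without thinning 3 genes passed in some library: EGR1 (0.67 and 0.56 in IR, against 0.51 and 0.57 in UT), FOS (0.55 in IR2) and IER3 (0.52 in UT2), beside 0.991% and 0.861% of all genes in IR and 0.382% and 0.471% in UT. At 5000 UMIs FOSL1 had residuals of 0.164 and 0.127 in IR, against 0.187 and 0.163 in UT, and FOSL2 had 0.173 and 0.113 in IR, against 0.150 and 0.174 in UT, so the groups overlapped for both. IER3 and MYC did not overlap at 5000, 8000 or 12000 UMIs or without thinning, beside 40.7%, 41.3%, 40.3% and 42.5% of all genes. These depths drew on the same libraries and are not separate evidence. JUNB was apart as higher in IR at 5000 UMIs and as lower in IR at 12000 UMIs. FOS was apart only at 12000 UMIs, lower in IR, and FOSB only without thinning, higher in IR.

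**Figure D4:**
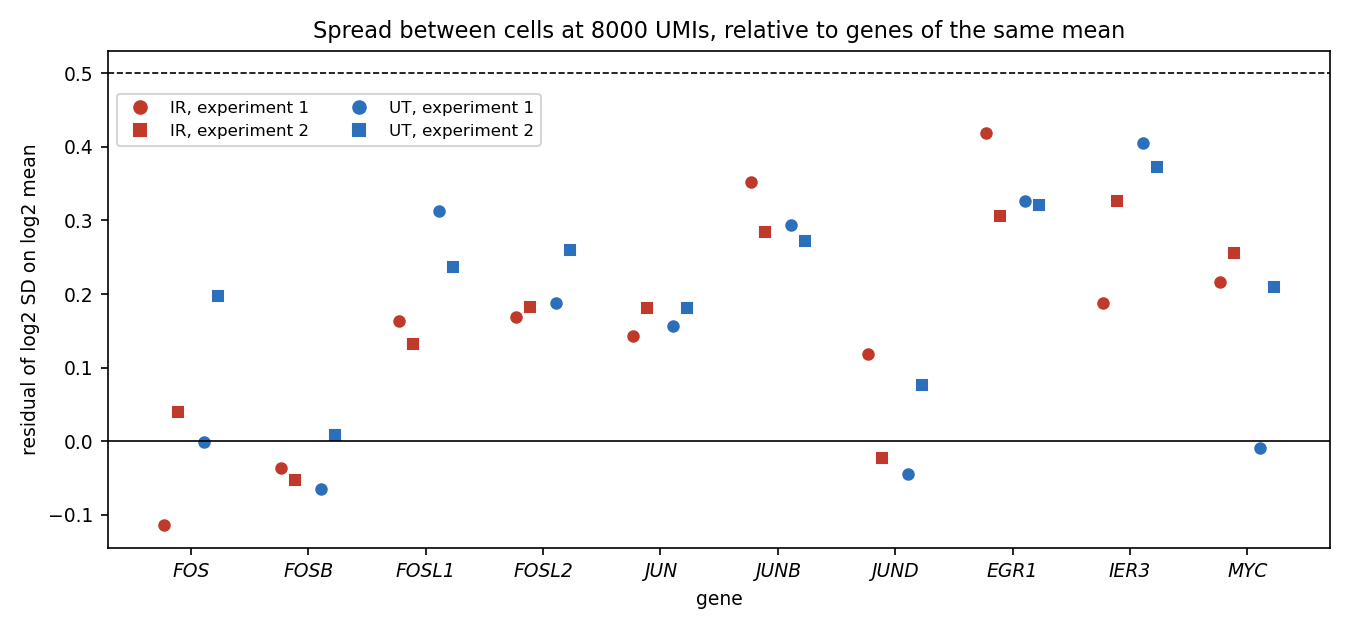
Residual of log2 SD on log2 mean for each gene at 8000 UMIs per cell, in IR (red) and UT (blue), with experiment 1 as circles and experiment 2 as squares, the solid line at 0 and the dashed line at the limit of 0.5. EGR1, JUNB and IER3 had the highest points, up to 0.42 for EGR1 in IR1, and FOSL1 was lower in IR at 0.16 and 0.13 than in UT at 0.31 and 0.24.

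Across cells of a library, JUNB, EGR1 and IER3 gave the 3 highest correlations among the pairs of members. The correlation across thinned cells of JUNB with IER3 averaged 0.22 over the 4 libraries (0.13 to 0.32), that of JUNB with EGR1 0.19 (0.10 to 0.25) and that of EGR1 with IER3 0.18 (0.15 to 0.22). FOS with EGR1 averaged 0.12 and FOS with IER3 -0.02. These are descriptions over 231 to 356 cells that share a plate, a depth and normalisation, in sparse counts. Among 5683 candidate genes seen in at least 20% of cells of every library, the 5 most like JUNB were IER3, the early gene IER2 (0.21), EGR1, BHLHE40 (0.19) and KLF10 (0.17). The list for EGR1 was KLF10 (0.21), IER2 (0.21), JUNB, IER3 and the phosphate transporter SLC20A1 (0.16), and that for IER3 was JUNB, IER2 (0.18), EGR1, the matricellular gene CCN2 (0.17) and the mRNA decay factor ZFP36L1 (0.16).

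FOSL1 had other neighbours, all of them genes of G2 and M phase: UBE2C (0.21), AURKB (0.18), TOP2A (0.18), CDK1 (0.18) and NDC80 (0.17). In UT1 these correlations were low, from 0.03 for UBE2C to 0.11 for NDC80. The correlation of FOSL1 with the summed share of the G2 and M list was 0.26 and 0.24 in IR, against 0.04 and 0.18 in UT, although that list was lower in IR cells. With the S phase list it was 0.15 and 0.21 in IR, against 0.08 and 0.05 in UT, so the link was not limited to G2 and M genes. JUND was most like NEAT1 (0.14), MALAT1 (0.14), CDKN1A (0.13), DUSP1 and SAMD4A, the first 2 being nuclear noncoding RNAs. JUN was most like CREB5 (0.15), ZFP36L1 (0.14), YRDC, CCN1 and HMGCS1, and FOSL2 was most like ANKRD1 (0.15), IER3 (0.14), LFNG, ECH1 and JUND. FOS, FOSB and MYC fell under the 20% limit in some library and were not ranked.

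The genes around the 10 were then counted in the fit for group alone, in which 239 of 14647 genes were higher and 124 lower. With the block 14.3% of all genes were higher and 12.9% lower. All lists were chosen with earlier results of these data known, so their counts and medians are descriptions. Of 11 other AP-1 family bZIP genes tested, 2 rose, 0 fell and 9 were not called, and the median log2 fold change was 0.16 (5 rose with the block). ATF3, a stress-induced factor that pairs with Jun proteins, stood at 53.5 and 84.7 CPM in IR, against 13.5 and 14.7 CPM in UT. The groups were far apart (4.64-fold, log2 fold change 2.21, SE 0.25, edgeR adjusted p = 0.0185), and the call held without any single library. MAFF, a small Maf protein, stood at 80.7 and 80.3 CPM in IR, against 40.7 and 39.9 CPM in UT (log2 fold change 0.92, edgeR adjusted p = 0.0389). Its call was lost whichever of the 4 libraries was left out, with adjusted p between 0.0812 and 0.128.

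Of 32 other immediate early genes tested, 1 rose, 0 fell and 31 were not called, with a median log2 fold change of 0.32 (13 rose and 0 fell with the block, and 2 rose without IR1 or without UT1). The called gene was BTG2, an antiproliferative factor that is also on the list of p53 targets, at 88.4 CPM in both IR libraries, against 25.2 and 31.6 CPM in UT (log2 fold change 1.56, edgeR adjusted p = 0.0176). Of 24 p53 targets, 14 rose and 0 fell, with a median of 1.21. Of 14 ERK feedback and output genes, such as the dual specificity phosphatases and Sprouty proteins, 0 were called, with a median of 0.09 (with the block 3 rose and 1 fell). CCND1, the cyclin D1 gene and a member of this list chosen after its values were seen, stood at 369 and 360 CPM in IR, against 234 and 193 CPM in UT (log2 fold change 0.69, edgeR adjusted p = 0.0834 for group alone and 1.59e-09 with the block).

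Of 30 genes for MAPK kinases and serum response factors, 1 rose and 1 fell, with a median log2 fold change of -0.06. MAP2K3, a kinase that activates p38, stood at 103 and 105 CPM in IR, against 48.6 and 54.3 CPM in UT (log2 fold change 0.93, edgeR adjusted p = 0.0374). MAP2K6, the other main p38 kinase, stood at 1.74 and 1.13 CPM in IR, against 8.35 and 6.61 CPM in UT (log2 fold change -2.45, edgeR adjusted p = 0.0326). The groups did not overlap for either kinase. MAP2K3 lost its call whichever library was left out (adjusted p between 0.0653 and 0.114), and MAP2K6 lost it without IR1, IR2 or UT1 (up to 0.0767).

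Of 25 genes known as AP-1 targets, 5 rose, 0 fell and 20 were not called, with a median log2 fold change of 0.74 against -0.00 for all genes. Of the 25, 23 lay above 0, and 18 rose with the block, beside 14.3% of all genes. Since this list was chosen with earlier results of these data known, its rise is no evidence of AP-1 activity. MMP3, a matrix protease (stromelysin), stood at 70.6 and 68.9 CPM in IR, against 9.71 and 5.73 CPM in UT (8.60-fold in the fit, log2 fold change 3.10, edgeR adjusted p = 0.0137). CD44, the hyaluronan receptor, stood at 300 and 308 CPM in IR, against 107 and 121 CPM in UT (1.33, adjusted p = 0.0176). AREG, an EGF receptor ligand, stood at 41.7 and 44.3 CPM in IR, against 13.8 and 15.4 CPM in UT (1.48, adjusted p = 0.0200). For MMP3, CD44 and AREG the groups were wide apart and the call held without any single library. FGF2, a growth factor outside the rule for named genes and chosen after its values were seen, stood at 76.9 and 93.4 CPM in IR, against 31.5 and 36.6 CPM in UT (1.24, adjusted p = 0.0273), and lost its call without IR2 (0.0562). The part of AP-1 in these levels was not tested.

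MYC was followed through its partners and targets. Of 13 genes for MYC partners and antagonists, 0 rose and 1 fell (2 fell without IR2), with a median log2 fold change of 0.14. The gene that fell was MYCN, the neuronal paralogue, at 2.09 and 0.97 CPM in IR, against 11.8 and 8.96 CPM in UT (log2 fold change -2.83, SE 0.41, edgeR adjusted p = 0.0276), and its call held without any single library. MYC and MYCN thus lay on opposite sides, but at different ranges of CPM. Of 36 MYC target genes, mostly for ribosome production, 0 were called, with a median of -0.10 (with the block 4 rose and 12 fell). Relative to all transcripts, the median of this list was not higher in IR. MYC itself was higher in both IR libraries but was not called for group alone, and a link between MYC and the list was not tested. The level of the list per cell was not compared.

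Cell handling is known to switch on immediate early genes. Of 15 heat shock and handling genes, 0 were called without the block (median log2 fold change -0.21), and 0 rose and 7 fell with it. Their summed level was 9209 and 8553 CPM in IR, against 11264 and 10243 CPM in UT, lower in IR as FOS and IER3 were. Across thinned cells, the correlation of FOS with the summed share of this list was -0.11 and 0.04 in IR, against -0.10 and -0.09 in UT. That of IER3 was -0.08 and 0.12 in IR, against -0.01 and 0.00 in UT. The part of handling in the levels of FOS and IER3 was not tested.

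**Figure D5:**
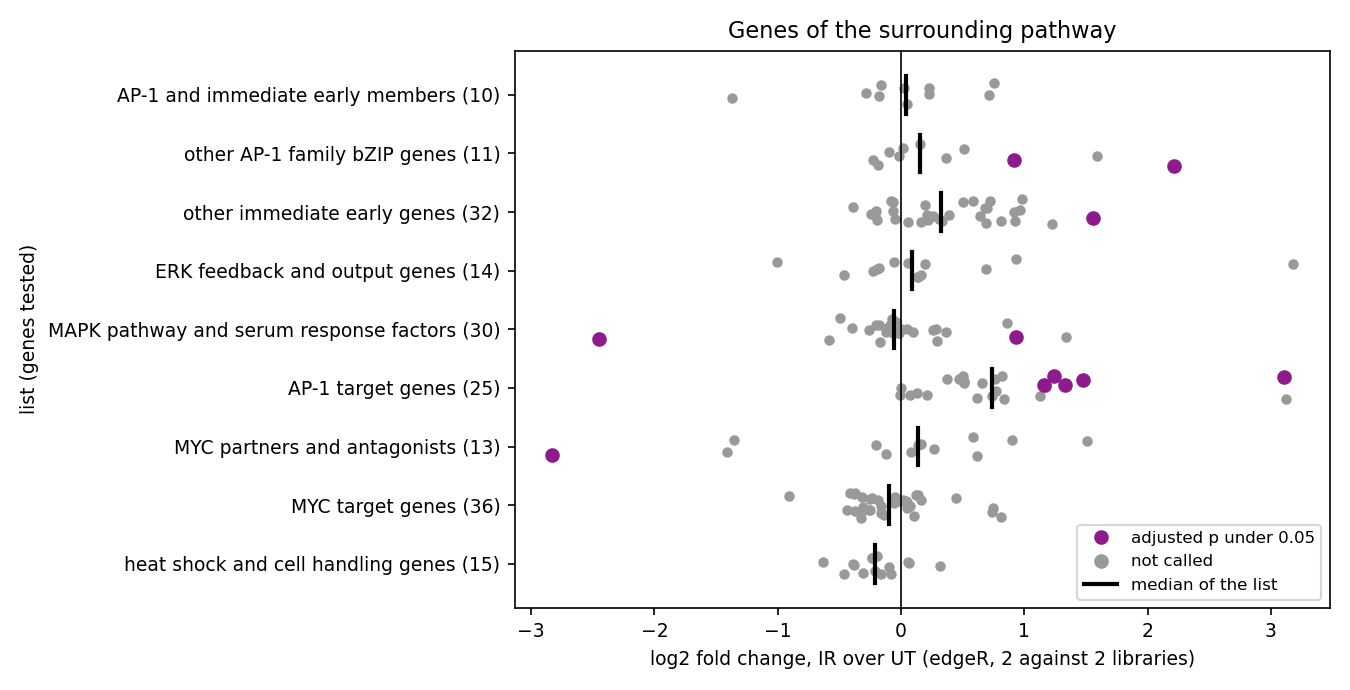
Log2 fold change, IR over UT, from the edgeR fit for group alone, for the genes tested of the 10-gene group and of 8 other lists (number tested in brackets), with purple points for an adjusted p under 0.05, grey points for genes not called and a black bar for the list median. AP-1 target genes had a median of 0.74 with 5 called higher, and the 10 genes themselves a median of 0.04 with 0 called. The lists were chosen with earlier results of these data known.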

How the data were processed

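Single cells sorted into plates were profiled by SORT-seq with the CEL-Seq2 protocol, which tags the 3' end of polyadenylated RNA with a cell barcode and a UMI. The authors mapped reads to GRCh38 with STARsolo, without intronic or multi-gene reads, and used Seurat 5 for later steps. The deposited matrices hold expected counts, that is UMI numbers corrected for collisions among 4096 UMIs. In each library 99.9% of values lay on that correction within their rounding. The design had assumed plain counts, so the expected counts were summed per library and rounded, and UMI numbers were recovered for thinning. All 1220 deposited barcodes were used with no further filter or doublet call, and the 92 spike-ins were left out of levels and fits.

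Libraries were compared, 2 against 2, by the quasi-likelihood test of edgeR 4.0.16 under R 4.3.3 (robust, TMM scaling, genes kept by filterByExpr, Benjamini-Hochberg over 14647 genes, call at adjusted p under 0.05). TMM scaling makes fitted log2 fold changes differ slightly from log2 ratios of CPM. DESeq2 1.42.0 was an alternative. The titles give the experiment number, which pairs the libraries, and same-numbered libraries deviated together from their group means (correlation 0.635 across genes). Nothing else states separate cultures beyond the methods calling the sets of samples independent, so the p-values reflect only how far these libraries vary. On simulated counts the fit for group alone recovered 61% of 2-fold and 99% of 4-fold changes. That simulation had no experiment effect, a common spread for all genes, and changed genes drawn only from those above a count limit. These shares therefore need not hold for the 10 genes. The 10 genes and all lists were chosen with earlier results of these data known. Other named genes are CDKN1A, the called genes of each list (up to 3 in each direction by smallest p) and, for members seen in at least 20% of cells of every library, the 5 genes with the highest mean correlation. Genes of the S phase, G2 and M and p53 lists were described by counts only, and 1 called gene of the AP-1 target list is not reported here. Positions are from GENCODE.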

Additional observations from a re-analysis of the deposited data

Results flagged for a closer look

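For JUND, the log2 ratio of IR over UT was -0.40 in experiment 1 and 0.13 in experiment 2, so the experiments moved in opposite directions. For EGR1 the log2 ratio was 0.05 in experiment 1 and -0.19 in experiment 2, opposite in sign only. Its counting interval in experiment 1 (-0.16 to 0.26) included 0 and overlapped that of experiment 2 (-0.37 to -0.01). With 1 library per group in each experiment, the difference between the experiments was not tested for either gene.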

How the results depend on the processing

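Fits rested on 2 libraries per group, with 2 residual degrees of freedom, or 1 with the block, and for the lone library left by omitting its partner the spread was assumed to be like that of the other group. Counts near 60 to 100 for FOSB limit it to large changes. Of all genes, 239 were higher and 124 lower for group alone. The counts were 2094 and 1883 with the replicate block, 3332 and 47 per cell, 929 and 584 with no filter on low counts, 116 and 51 with cells thinned to 8000 UMIs, 43 and 35 in low cycle cells, and 380 and 321 in low cycle cells with the block. DESeq2 gave 333 higher and 225 lower, and leaving out 1 library gave 103 to 168 higher and 20 to 88 lower. Of the 10 genes, 2 were called higher and 2 lower with the block, with or without the restriction to low cycle cells. The counts were 3 and 0 per cell, 2 and 1 with no filter, 0 and 1 with DESeq2, 0 and 1 in low cycle cells, and 0 to 1 in each direction when 1 library was left out (FOS lower without UT1, MYC higher without UT2). The sign of FOSB turned with equal numbers of cells (-0.0604), thinning (-0.21), low cycle cells (-0.41) and low cycle cells with the block (-0.41), and ranged from -0.16 to 0.24 when 1 library was left out. JUNB turned in low cycle cells (-0.31, and -0.32 with the block) and ranged from -0.13 to 0.20. JUND and EGR1 became 0.37 and IER3 0.26 per cell, and JUND ranged from -0.53 to 0.10 and EGR1 from -0.32 to 0.0199 when 1 library was left out. Genes over a residual of 0.5 numbered 0 of 10 at 8000 UMIs, 1 at 12000 and 3 without thinning. The block changed no other call among the 10 genes. The cause of these shifts was not tested.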
